A study of Homo sapiens and Mus musculus with 10 samples.

Results

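Bidirectional promoters are the short stretches of DNA between neighbouring genes that are transcribed away from each other. They were taken here as pairs of protein-coding genes of the GENCODE 44 annotation on opposite strands, pointing apart, with the minus-strand gene upstream and gene starts at most 1 kb apart. The rule found 887 pairs, which hold 1710 of 19970 protein-coding genes (8.56%). Their starts lay 1 to 995 bp apart, with a median of 132 bp and quartiles of 69 and 248 bp. Each region ran from 500 bp before the minus-strand gene's start to 500 bp past the plus-strand gene's start, which gave a median length of 1133 bp. Some genes belong to more than 1 pair, so the 887 pairs stand at 824 sites that share no gene, and 80 pairs include a readthrough gene. The remaining 18260 protein-coding genes each gave 1 promoter, 500 bp either side of the gene start, called other promoters here. The study measured bulk short-read ATAC-seq, in which the transposase Tn5 inserts adapters into accessible DNA, in 10 libraries from 5 cell lines. The 8 human libraries used here came from cultures of 4 established lines with no treatment named in the labels, 2 replicates of each. GM12878 is a line of B lymphoblasts transformed by Epstein-Barr virus and K562 a line from an erythroleukaemia. HFF1 cells are fibroblasts of foreskin, and HEK293T cells derive from embryonic kidney and express the large T antigen of SV40. No label says whether replicates came from separate cultures, so p-values measure the spread between these libraries, which may be technical.

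At a bidirectional promoter, RNA polymerase II starts from a shared nucleosome-depleted region and moves outward on both strands. Such promoters are known to be rich in CpG islands, to lack TATA boxes often, and to serve many genes of DNA repair, mitochondrial function and the cell cycle that most dividing cells use. The core histone genes are a familiar case, since H2A and H2B genes commonly stand head to head and are transcribed together in S phase.

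The 8 peak lists held 52137 to 127359 peaks, and read depth is not given in the sources used here. HEK293T had the shortest lists (mean 52288 ± 213, SD, n = 2) and HFF1 the longest (123852 ± 4960, SD, n = 2). Of 5 marker genes for each line, all 5 carried a promoter peak in both libraries of GM12878 and of HFF1, against 3 in HEK293T and 3 in K562. Of these, 4 in GM12878, 2 in HFF1, 1 in HEK293T and 2 in K562 had no peak in any other line. PAX2 and SOX11 had no peak in HEK293T, SOX11 and the GM12878 marker PAX5 had peaks in both HFF1 libraries, and KLF1 had none in K562. The 2 libraries of a line gave the same answer, peak or no peak, for 98.3% to 99% of bidirectional promoters and 96% to 97.2% of other promoters.

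The stretches below show what the paired starts look like, for pairs on which the results turn. Each is the plus strand of GRCh38 from 25 bp before the minus-strand gene's start to 25 bp past the plus-strand gene's start, written 5′ to 3′. Capitals mark exact matches, on either strand, of the 5 motifs whose counts are given further on, so a match to the other strand appears as its reverse complement. The first 4 pairs carried a peak in all 8 libraries: RARS2/ORC3 at chr6:87590003-87590092, PPAT/PAICS at chr4:56435590-56435766, SARS2/MRPS12 at chr19:38930738-38930969 and the histone pair H2AC15/H2BC15 at chr6:27838350-27838570.
RARS2/ORC3: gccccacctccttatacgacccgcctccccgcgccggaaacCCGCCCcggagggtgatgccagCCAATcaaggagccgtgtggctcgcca
PPAT/PAICS: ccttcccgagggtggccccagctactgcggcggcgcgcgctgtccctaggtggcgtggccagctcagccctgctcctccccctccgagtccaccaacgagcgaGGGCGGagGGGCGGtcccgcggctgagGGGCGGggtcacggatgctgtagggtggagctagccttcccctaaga
SARS2/MRPS12: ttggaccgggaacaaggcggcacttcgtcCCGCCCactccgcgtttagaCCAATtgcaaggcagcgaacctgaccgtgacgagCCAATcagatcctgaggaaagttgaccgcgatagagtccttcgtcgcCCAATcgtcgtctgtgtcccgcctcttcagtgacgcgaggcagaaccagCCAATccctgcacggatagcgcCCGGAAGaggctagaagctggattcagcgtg
H2AC15/H2BC15: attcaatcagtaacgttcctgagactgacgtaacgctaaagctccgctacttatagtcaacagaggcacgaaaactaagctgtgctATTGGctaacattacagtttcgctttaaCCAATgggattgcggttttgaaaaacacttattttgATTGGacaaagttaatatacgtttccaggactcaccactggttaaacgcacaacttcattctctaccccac

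The next 6 stretches belong to pairs that were open in some lines and not in others. MTX3/THBS4 at chr5:79991237-79991336 had no peak in K562, and ZC4H2/ZC3H12B at chrX:65034688-65034813 had none in GM12878. The histone pair H2AC14/H2BC14 at chr6:27814752-27815047 was open in GM12878 and HFF1. WNT3/WNT9B at chr17:46833129-46833226 was open in HFF1 alone, and MORC1/C3orf85 at chr3:109118109-109118277 and CSAG1/MAGEA12 at chrX:152733710-152733782 in K562 alone.
MTX3/THBS4: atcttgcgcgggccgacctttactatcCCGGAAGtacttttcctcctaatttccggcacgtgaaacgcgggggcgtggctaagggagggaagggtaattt
ZC4H2/ZC3H12B: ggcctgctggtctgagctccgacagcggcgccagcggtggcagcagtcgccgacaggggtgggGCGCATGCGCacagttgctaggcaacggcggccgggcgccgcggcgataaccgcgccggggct
H2AC14/H2BC14: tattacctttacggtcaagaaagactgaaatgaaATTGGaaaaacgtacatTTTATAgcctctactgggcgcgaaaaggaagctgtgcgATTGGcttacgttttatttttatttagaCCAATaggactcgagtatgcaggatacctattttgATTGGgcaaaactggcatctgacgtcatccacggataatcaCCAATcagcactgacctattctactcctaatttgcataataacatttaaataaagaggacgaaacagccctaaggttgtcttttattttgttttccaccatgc
WNT3/WNT9B: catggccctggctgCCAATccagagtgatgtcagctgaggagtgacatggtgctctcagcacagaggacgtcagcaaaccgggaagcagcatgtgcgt
MORC1/C3orf85: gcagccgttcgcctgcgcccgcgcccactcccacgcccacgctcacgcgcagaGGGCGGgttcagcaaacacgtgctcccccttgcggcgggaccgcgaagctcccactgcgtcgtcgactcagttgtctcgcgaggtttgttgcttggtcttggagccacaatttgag
CSAG1/MAGEA12: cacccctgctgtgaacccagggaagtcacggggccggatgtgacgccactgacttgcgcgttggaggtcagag

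The last 3 pairs had no peak in any library. PLCZ1/CAPZA3 at chr12:18738075-18738144 joins genes used in sperm, and its stretch holds 0 CpG dinucleotides. CSAG2/MAGEA2B at chrX:152714524-152714611 and MAGEA2/CSAG3 at chrX:152753859-152753946 are reverse complements of each other with 100.0% identity.
PLCZ1/CAPZA3: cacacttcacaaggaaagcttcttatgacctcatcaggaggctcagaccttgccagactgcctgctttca
CSAG2/MAGEA2B: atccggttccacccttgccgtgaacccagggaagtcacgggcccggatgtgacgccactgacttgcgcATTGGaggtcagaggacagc
MAGEA2/CSAG3: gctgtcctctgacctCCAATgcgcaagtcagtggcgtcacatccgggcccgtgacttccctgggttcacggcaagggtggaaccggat

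Most bidirectional promoters were accessible in each library. A peak overlapped 94.14% and 94.25% of the 887 regions in the GM12878 libraries, 92.11% and 92.22% in HEK293T, 95.15% and 94.81% in HFF1, and 93.91% and 93.12% in K562. Over all 19147 promoters the share with a peak was 59.8% and 60.1% in GM12878, 56.6% and 56.5% in HEK293T, 65.8% and 65% in HFF1, and 59.4% and 58.5% in K562. Other promoters carried a peak in 58.31% ± 0.213 of cases in GM12878, 54.82% ± 0.128 in HEK293T, 63.98% ± 0.542 in HFF1 and 57.26% ± 0.604 in K562 (SD, n = 2 each). The highest library for other promoters, at 64.4%, stood below the lowest for bidirectional ones, at 92.1%. The gap averaged 35.12 percentage points (SD 2.61 over 8 libraries) and was positive in 8 of 8 libraries. An exact two-sided sign-flip test gave p = 0.00781, the smallest that 8 libraries allow, and 0.00952 after Benjamini-Hochberg adjustment over the 7 tests run. Over the 4 line means the same exact test gave p = 0.125, the smallest that 4 values allow. In a comparison chosen after seeing the data, other promoters were limited to those without certain neighbours. Left out were head-to-head genes up to 5 kb apart or with 5′ ends overlapping by up to 1 kb. Genes with a divergent long non-coding RNA (lncRNA) start within 1 kb were left out too. The gap was then 39.14 points, and longer overlaps were not a ground for leaving a gene out.

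**Figure D1:**
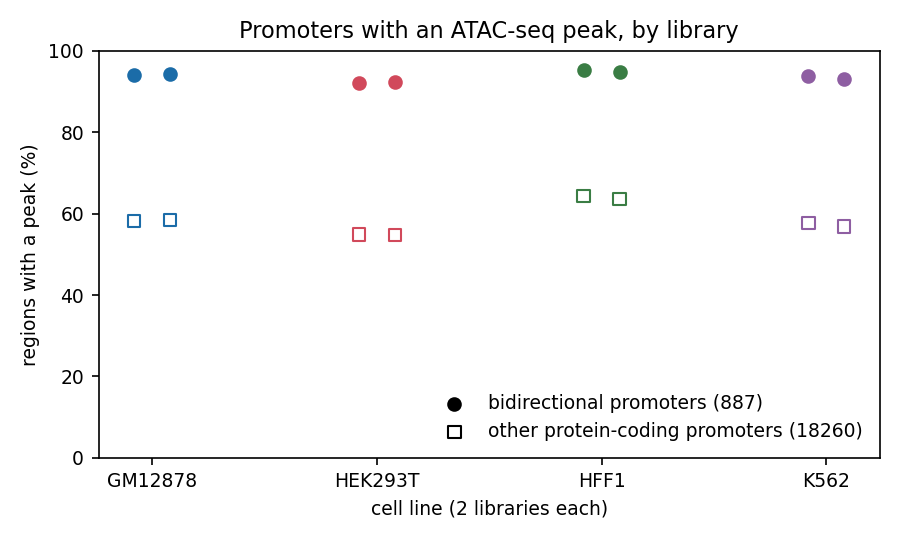
Share of promoter regions that overlap a peak (y axis, percent) in each of the 2 libraries of each human cell line (x axis). Filled circles are the 887 bidirectional promoters, at 92.1% to 95.2%, and open squares are the 18260 other protein-coding promoters, at 54.7% to 64.4%.

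The lines differed slightly among themselves. The share of bidirectional promoters with a peak was 94.98% ± 0.239 in HFF1, 94.19% ± 0.0797 in GM12878, 93.52% ± 0.558 in K562 and 92.16% ± 0.0797 in HEK293T (SD, n = 2 each). Differences between lines made up 0.957 of the variance (eta squared), with p = 0.00952 in an exact one-sided permutation test over all ways to split the libraries into pairs, the smallest it allows. HFF1 and GM12878, and GM12878 and K562, stood less than 1 point apart, and the libraries of lines next to each other in this order did not overlap. The order is that of the number of peaks in the lists. With each list cut to its 40000 peaks of highest −log10 p the order changed to K562 at 91.5%, HFF1 at 90.5%, GM12878 at 90.3% and HEK293T at 89.2%. The gap to other promoters also differed between lines, from 31.01 ± 0.303 points in HFF1 to 37.34 ± 0.208 in HEK293T (SD, n = 2 each; eta squared 0.997, exact p = 0.00952). With 40000 peaks a list HEK293T had the smallest gap, 38.1 points, and GM12878 the largest, 42.2 points.

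Most pairs were open everywhere rather than in 1 line. A peak was present in all 8 libraries at 780 of 887 bidirectional promoters (87.9%), against 46.6% of all promoters and 44.6% of other promoters. No peak was found in any library at 26 (2.93%), where the background over all promoters was 25.5%. The remaining 81 pairs had a peak in 1 to 7 libraries, a share of 9.13% against 28% over all promoters. A line was counted as open where both of its replicates had a peak. By that rule 48 pairs were open in exactly 3 lines (5.41%, background 8.24%), 15 in exactly 2 lines (1.69%, background 6.97%), 10 in exactly 1 line (1.13%, background 9.64%) and 34 in none (3.83%, background 28.6%).

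**Figure D2:**
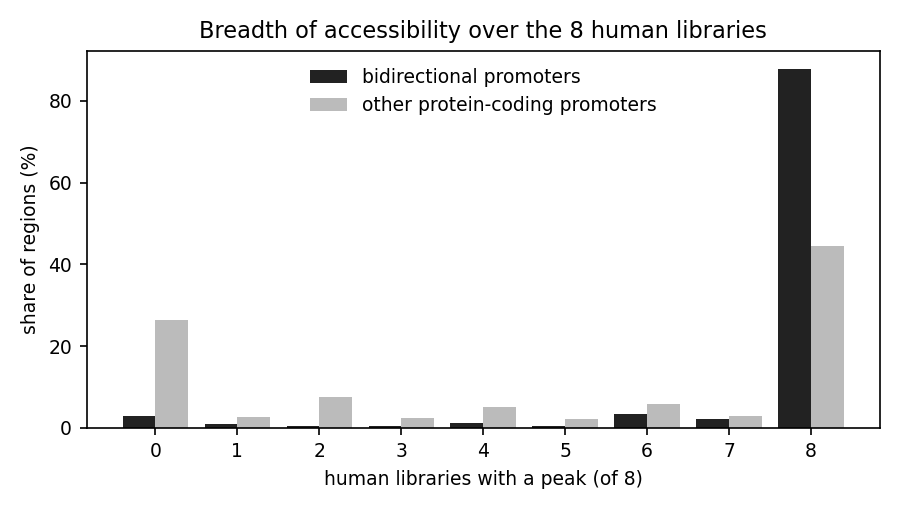
Share of promoters (y axis, percent) by the number of human libraries, of 8, in which they overlap a peak (x axis). Bidirectional promoters (black) gather at 8 libraries with 87.9%, while other promoters (grey) stand at 44.6% there and at 26.5% with no library.

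Bidirectional promoters were richer in CpG dinucleotides than other promoters, and CpG content moved with accessibility in both sets. Over 500 bp either side of the midpoint or start, their median GC content was 61.7% against 58.8%, and their median ratio of observed to expected CpG 0.784 against 0.668. CpG-rich regions, with a ratio of at least 0.6 and a GC content of at least 50%, made up 797 of the 887 pairs (89.9%) and 55.2% of other promoters. Among CpG-rich promoters the gap shrank to 11.82 points, ranging from 6.58 to 14.5 over the libraries, and stayed positive in 8 of 8 libraries (exact sign-flip p = 0.00781, adjusted 0.00952; 0.125 over the 4 line means). With 40000 peaks a list it was 18.41 points, from 13.7 to 22 over the libraries. Among CpG-poor promoters, 90 of them bidirectional, it was 40.09 points, from 38.9 to 43.3 over the libraries (exact sign-flip p = 0.00781, adjusted 0.00952, and 0.125 over the 4 line means). Within this class the sets were not matched in CpG content. A ratio below 0.3 held 18 pairs and 4492 other promoters, and a ratio of 0.45 to 0.6 held 43 and 1623. Gaps within narrower ranges are given below. A peak in all 8 libraries was found at 736 of 797 CpG-rich pairs (92.3%) against 70.8% of CpG-rich other promoters. The same held for 44 of 90 CpG-poor pairs (48.9%) against 12.2%.

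The gap varied across narrow ranges of CpG content. At a ratio of 0.9 and above, 148 pairs had a median share of 97.3% with a peak against 87.8% for other promoters, with a gap of 4.57 to 11.3 points by library. Between 0.75 and 0.9 there were 395 pairs, at 97.2% against 85.3%, with a gap of 5.2 to 13.2 points. Between 0.6 and 0.75 there were 270 pairs, at 95.4% against 77.6%, with a gap of 9.33 to 17.9 points. These 3 ranges hold most of the pairs. Between 0.45 and 0.6, the 43 pairs stood at 82.6% against 52.3%, with a gap of 21.4 to 38.9 points. Between 0.3 and 0.45 there were 13 pairs, at 38.5% against 27.4%, with a gap of 6.71 to 20.3 points by library. Below 0.3 there were 18 pairs, at 38.9% against 14.3%, with a gap of −0.811 to 27.2 points by library.

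**Figure D3:**
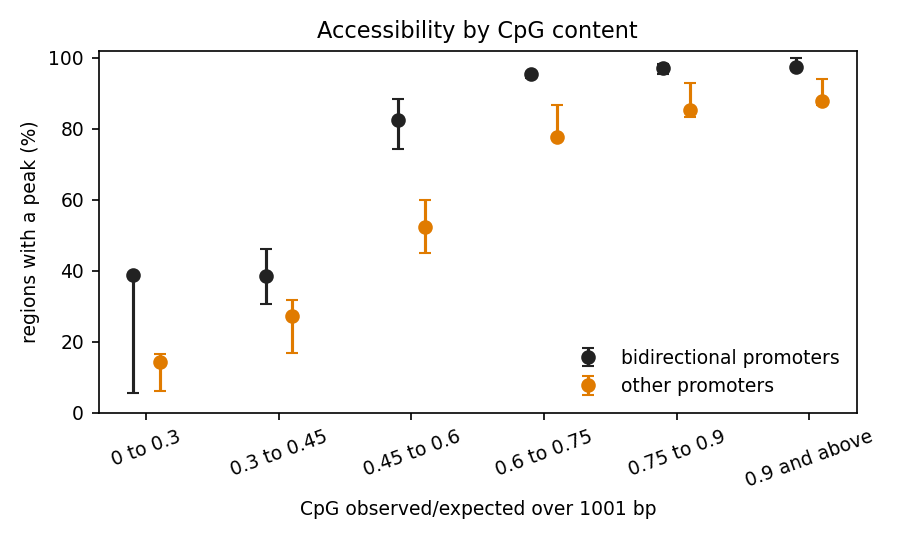
Share of regions with a peak (y axis, percent) by the ratio of observed to expected CpG (x axis). Points are medians over the 8 libraries and bars run from the lowest to the highest library; bidirectional promoters (black) lie at 95.4% or more from a ratio of 0.6 upward, where other promoters (orange) lie at 77.6% to 87.8%.

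Among arrangements that resemble a bidirectional promoter, divergent lncRNA starts and overlapping 5′ ends lay between the pairs and the remaining promoters. Head-to-head genes more than 1000 bp apart did so by their median share but not by their lowest library. Protein-coding starts with a divergent lncRNA start within 1 kb (1390 starts) had a median share with a peak of 83.5% over the 8 libraries. For head-to-head genes whose 5′ ends overlap by up to 1 kb (969 starts) it was 87.9%. Head-to-head genes more than 1000 and up to 5000 bp apart (553 starts) stood at 55.5%. All remaining starts (15348) stood at 53.8%, against 94% for the bidirectional promoters. In the lowest library the wider head-to-head genes were at 45.4% and the remaining starts at 50.7%. No peak in any library was found at 32.4% and 29.5% of them. Limited to CpG-rich regions, the shares were 96.9% for bidirectional promoters, 92.8% for overlapping 5′ ends, 89.5% with a divergent lncRNA, 86.6% for the wider head-to-head genes and 81.6% for the rest. The lowest library in that class was 76.7% for the wider head-to-head genes and 80.1% for the rest. These shares are a description, with no test between the arrangements.

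Where a peak was present, it ranked higher and was wider at bidirectional promoters. Each region's strongest peak was placed by its percentile, the share of peaks in the same list with a lower −log10 p. The median percentile was 95.3 at bidirectional promoters against 90.2 at other promoters in both GM12878 libraries, 87 against 82 and 81.8 in HEK293T, 94.8 against 89 and 88.7 in HFF1, and 93.3 and 93 against 89.5 and 88.7 in K562. The difference averaged 5.03 percentile points and was positive in 8 of 8 libraries (exact sign-flip p = 0.00781, adjusted 0.00952, and 0.125 over the 4 line means). The median width of that peak was 934 ± 12.7 bp in GM12878, 619.2 ± 25.1 bp in HEK293T, 991.5 ± 43.1 bp in HFF1 and 940 ± 4.24 bp in K562 (SD, n = 2 each). It exceeded the width at other promoters by 133.8 bp on average, from 61.5 to 183 bp, in 8 of 8 libraries (exact sign-flip p = 0.00781, adjusted 0.00952, and 0.125 over the 4 line means). With 40000 peaks a list the excess was 87.75 bp, from 50 to 112 bp. Among CpG-rich regions only, the percentile difference was 3.734 points, from 2.474 to 4.515 over the libraries. The excess in width was 101.5 bp there, from 51 to 142 bp. The bidirectional regions are longer than those of other promoters. With both sets at 500 bp either side of the midpoint or start, the gap in the share with a peak was 34.94 points.

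A single peak usually covered both starts, and this depended on how far apart they were. Over all pairs, 1 peak lay over both starts in 75.3% to 86.8% of pairs by library, with a mean of 82.7%. Spacing classes are named by their bounds, with the lower bound left out. At up to 100 bp (342 pairs) the median over libraries was 93.3%, at 100 to 200 bp (253 pairs) 89.3% and at 200 to 400 bp (180 pairs) 88.9%. It was 55.1% at 400 to 700 bp (68 pairs) and 19.3% at 700 to 1000 bp (44 pairs). Beyond the 1 kb limit it was 2.6% at 1000 to 2000 bp (77 pairs) and 0% at 2000 to 5000 bp (234 pairs).

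The starts were also read 1 by 1, each taken with 250 bp on either side. A pair with 1 peak over both starts always has both starts open by this looser measure. Its fall at wider spacing than that of the single peak is thus partly built into the windows. Both starts were open in a median of 93.4% of pairs at up to 100 bp, 96.7% at 200 to 400 bp and 80.1% at 400 to 700 bp. At 700 to 1000 bp both were open in 64.8% and only 1 of the starts in 30.7%. At 1000 to 2000 bp both were open in 37% and only 1 in 42.2%. HEK293T, the line with the shortest lists and narrowest peaks, gave the lowest library in each of the 400 to 700 bp and 700 to 1000 bp classes, with 1 peak over both starts in as few as 32.4% and 6.82%. Judged over 500 bp either side of the midpoint, 90.9% of pairs were CpG-rich at up to 100 bp, 65.9% at 700 to 1000 bp and 27.3% at 1000 to 2000 bp. Beyond 1000 bp that window lies between the starts. Judged around the starts themselves, 47.4% of head-to-head genes more than 1000 and up to 5000 bp apart were CpG-rich.

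**Figure D4:**
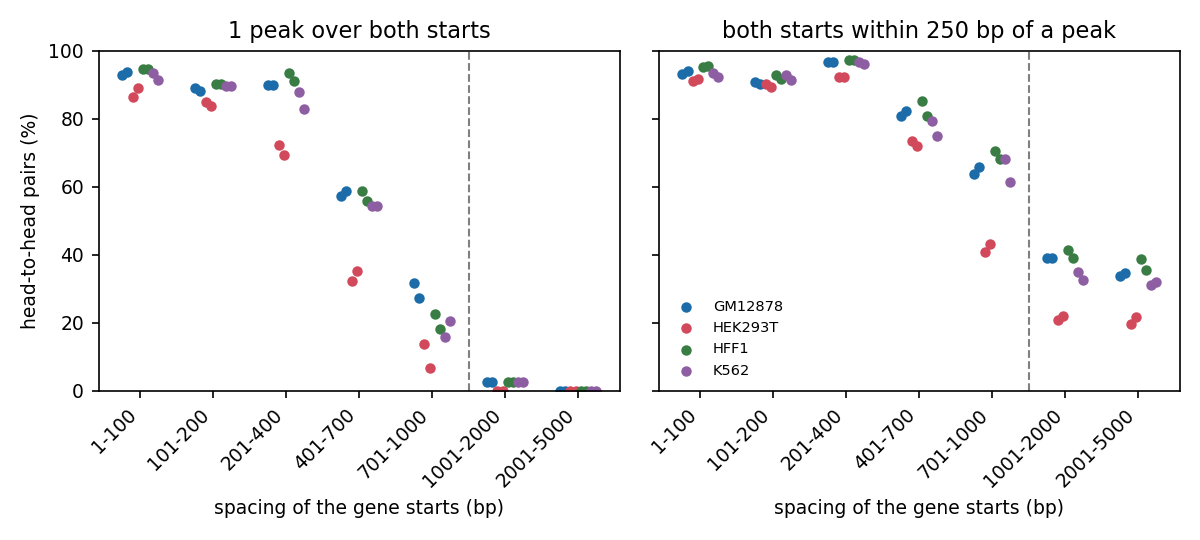
Share of head-to-head pairs (y axis, percent) by the spacing of their gene starts (x axis, bp), with 1 peak over both starts (left) and with both starts within 250 bp of a peak (right). Each point is 1 library, coloured by line, and the dashed line is the 1 kb limit of the pairs; the medians on the left fall from 93.3% at up to 100 bp to 19.3% at 700 to 1000 bp.

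The strongest summit, the point of highest signal in the best peak, was measured from the midpoint of the starts. The starts themselves lay a median of 132 bp apart. The summit's median distance from the midpoint was 56.5 to 77.5 bp by library, and 72.9% to 76.7% of summits lay within 150 bp. At other promoters the median distance from the gene start was 87 to 98 bp, and 62.2% to 65.1% lay within 150 bp. A midpoint and a start are different reference points, so these distances are not a like comparison. By library, 44.9% to 50.4% of summits fell on the side of the plus-strand gene. Which gene of a pair lies on the plus strand is arbitrary. The share therefore cannot show whether summits stand nearer to 1 gene of each pair. Seen from either gene, the summit lay upstream, with a median of 56 to 70 bp before the plus-strand start and 56 to 65 bp before the minus-strand start, against 18 to 24 bp before the start at other promoters. The interval between the starts made up 16.8% of the length of all the regions. Of the pairs with a peak, the summit was between the starts in 49.9% to 59.7% by library, a mean of 56.4%. By spacing this share was 37.1% at up to 100 bp, where the interval was 5.38% of the length, and 76.6% at 200 to 400 bp, where it was 21.7%. The value depends on which start is used. With the start of each gene's canonical transcript in place of the outermost annotated start, the rule found 984 pairs, 556 of them among the 887, and 80.2% of summits lay between the starts.

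**Figure D5:**
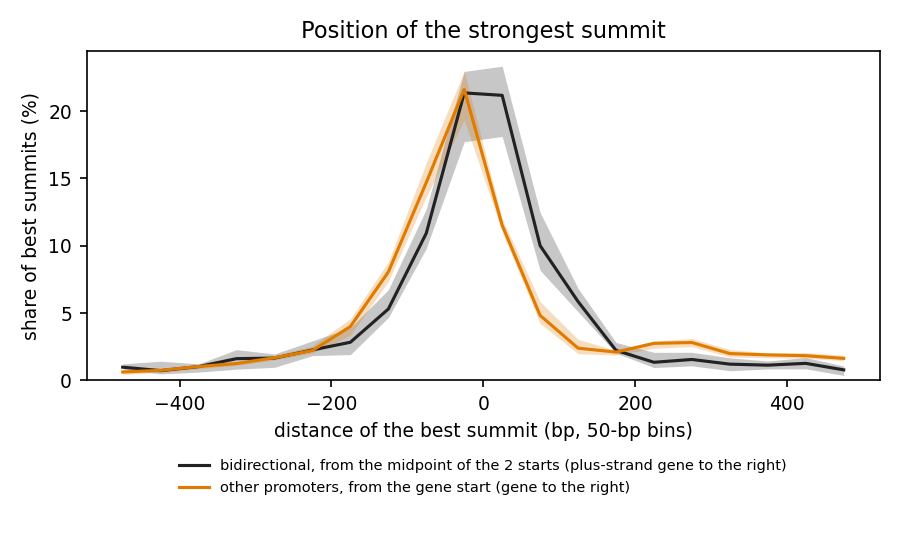
Share of best summits (y axis, percent, 50-bp bins) by distance (x axis, bp) from the midpoint of the gene starts at bidirectional promoters (black, plus-strand gene to the right) and from the gene start at other promoters (orange, gene to the right). Lines are means over the 8 libraries and bands run from the lowest to the highest library; the black curve is close to symmetric about 0 and the orange curve peaks just upstream of 0.

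Short motifs known to recruit promoter-binding factors were counted as exact matches on both strands over 500 bp either side of the midpoint of a pair or of the start of another gene. None of the 5 motifs contains another. The ETS motif CCGGAAG was present at 351 of 887 bidirectional promoters (39.6%) against 19% of other promoters, within the CpG-rich class at 41.3% against 27.5% and within the CpG-poor class at 24.4% against 8.62%. The NRF1 motif, whose letters stand in capitals in the ZC4H2/ZC3H12B stretch, was present at 4.96% against 1.85%, in the CpG-rich class at 5.4% against 3.03% and in the CpG-poor class at 1.11% against 0.391%. The SP/KLF motif GGGCGG stood at 91.7% against 70.3% in all, at 94.9% against 95.5% among CpG-rich promoters and at 63.3% against 39.2% among CpG-poor ones. CCAAT, the motif of NFY, was about as frequent in both sets, at 67.1% and 65.6%, with 66.4% against 59.7% in the CpG-rich class and 73.3% against 72.9% in the CpG-poor class. The TATA motif TATAAA was found at 17.2% against 27.9%, at 15.8% against 16% in the CpG-rich class and at 30% against 42.6% in the CpG-poor class. In the printed stretches, SARS2/MRPS12 holds 4 CCAAT matches and 1 ETS match, PPAT/PAICS 3 GGGCGG matches, MTX3/THBS4 1 ETS match and ZC4H2/ZC3H12B 1 NRF1 match. These are matches of letters and not measured binding.

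Pairs were ranked by their lowest percentile over the 8 libraries, and the 5 highest are given here. RARS2/ORC3, which pairs the mitochondrial arginyl-tRNA synthetase with a subunit of the origin recognition complex, had the highest lowest percentile of all pairs, 99.58. Its fold, the authors' enrichment of the summit over background, was 16.8 and 16.9 in GM12878, 21.8 and 20.8 in HEK293T, 14.8 and 15 in HFF1, and 16.1 and 15.5 in K562. MRPL50/ZNF189, a mitochondrial ribosomal protein with a zinc finger gene, followed at a lowest percentile of 99.48, and NMBR/VTA1, the neuromedin B receptor with a factor of endosomal sorting, at 99.13. TTC13/ARV1 had 99.11 and FHIP1B/CNGA4, in which CNGA4 encodes an olfactory channel subunit, 99.02. NMBR and CNGA4 are known for use in few tissues, and their shared promoters ranked above the 99th percentile in all 8 libraries. Over all 887 pairs the median lowest percentile was 80.2, counting a library with no peak as 0.

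Of 17 pairs long used as examples of head-to-head genes, 9 met the rule, and 7 of these had a peak in all 8 libraries. The other 8 fell outside because their annotated 5′ ends overlap, among them COL4A1/COL4A2 by 1345 bp and SURF1/SURF2 by 126 bp. PPAT/PAICS, which encode enzymes of purine synthesis, had folds of 7.78 and 7.29 in GM12878, 9.96 and 10.2 in HEK293T, 6.81 and 9.02 in HFF1, and 6.96 and 6.94 in K562. SARS2/MRPS12, a mitochondrial tRNA synthetase and a mitochondrial ribosomal protein, had 12.1 and 12.3, 14.1 and 11.7, 12.4 and 12.3, and 11.2 and 12 in the same order. Both pairs were open throughout, and a fold is scaled within its own list. NPAT/ATM, which joins a regulator of histone transcription to a DNA damage kinase, ranked at the 94.41 percentile or above in every library and TK1/AFMID, where TK1 is thymidine kinase, at 92.06 or above. SIRT3/PSMD13, a mitochondrial deacetylase and a proteasome subunit, reached down to 70.99 and TMEM258/FEN1, where FEN1 is a flap endonuclease, to 61.08, both in HEK293T.

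The type IV collagens, which build basement membranes, were the exception among these examples. COL4A4/COL4A3, 171 bp apart, had folds of 6.12 and 5.16 in GM12878, 9.54 and 8.74 in HEK293T, 7.04 and 6.69 in HFF1, and no peak in either K562 library. COL4A6/COL4A5, 341 bp apart on the X chromosome, had no peak in GM12878 and folds of 8.92 and 10.6 in HEK293T, 8.75 and 9.96 in HFF1, and 7.79 and 9.32 in K562. The collagen regions thus lacked a peak in different lines. The COL4A4/COL4A3 peaks ranked low in GM12878, at percentiles 27.6 and 15.5, and with 40000 peaks a list only 2 libraries kept a peak there.

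Functional groups were read against the 8.56% of all protein-coding genes that belong to a pair. Clustered histone genes were in pairs for 27 of 69 genes (39.1%), DNA repair and replication genes for 38 of 117 (32.5%), subunits and assembly factors of respiratory complex I for 15 of 48 (31.2%), and RNA polymerase subunits for 9 of 34 (26.5%). Mitochondrial ribosomal proteins followed with 17 of 78 (21.8%), anaphase complex and cell division cycle genes with 8 of 43 (18.6%) and proteasome genes with 7 of 50 (14%). The cell division cycle count includes CDC42SE1, the proteasome count PSME3IP1 and the solute carrier share SLC7A6OS. These genes share a symbol prefix but stand outside the named groups. Ubiquitin-conjugating enzymes stood at 10.8% and aminoacyl-tRNA synthetases at 8.82%. Zinc finger genes were at 6.54%, solute carriers at 3.22% and keratin-associated proteins with olfactory receptors at 0.588%. The shares describe the annotation and not the accessibility.

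The number of pairs with a peak in all 8 libraries lay near the 87.9% of all pairs in most of these groups, so it is no result about them. It was 35 of 38 pairs for DNA repair and replication, 17 of 18 for mitochondrial ribosomal proteins, 15 of 16 for complex I, 6 of 7 for the proteasome, 8 of 8 for the anaphase complex list, 5 of 5 for ubiquitin-conjugating enzymes and 3 of 3 for aminoacyl-tRNA synthetases. RNA polymerase subunits had 6 of 9, and both pairs lacking a peak in HEK293T, POLR2L/TSPAN4 and PPP1R13L/POLR1G, ranked between the 68.2 and 87.2 percentiles in the other lines. CLCN2/POLR2H lacked a peak in 1 HEK293T library and ranked at 5.3 in the other. MRPL36/NDUFS6, a mitochondrial ribosomal protein with a complex I subunit, likewise had no peak in HEK293T replicate 1 and the 7.2 percentile in replicate 2. Zinc finger genes had 27 of 32 pairs open in all 8 libraries. In all these groups, pairs that share a gene were counted separately, as for MRPL47, MRPL32 and UBE2B. The 2 pairs with an olfactory receptor, OR11A1/OR2H1 and TRIM5/OR56A3, had no peak in any library. The start of the canonical TRIM5 transcript lies 253545 bp from the annotated start used here and was open in all 8 libraries.

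Among the 15 histone pairs, 13 were open in all 4 lines, a share close to the 87.9% of all pairs. Most join an H2A gene to an H2B gene 170 to 251 bp apart, and H3C7/H2BC9 stands 979 bp apart. Pairs that share a gene were counted separately, as for H2BC7 and H2BC17. H2AC15/H2BC15, whose printed stretch holds 3 CCAAT matches, had folds of 6.5 and 6.79 in GM12878, 7.42 and 8.42 in HEK293T, 6.86 and 6.37 in HFF1, and 5.06 and 5.18 in K562. H2AC14/H2BC14, with 5 CCAAT matches, had 3.16 and 3.38 in GM12878, 6.75 and 5.53 in HFF1, and no peak in HEK293T or K562. The pair H2AC1/H2BC1, histone genes known from testis, had peaks in K562 alone, with folds of 4.78 and 4.91. The median lowest percentile over the 15 pairs was 60, beside 80.2 over all pairs. With 40000 peaks a list, H2AC14/H2BC14 kept a peak in 1 library and H2AC1/H2BC1 in 0.

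A peak was missing from both libraries of 1 line, and present in both libraries of each of the others, at a small number of pairs. Of these, 11 lacked a peak in HEK293T (1.24%, background 2.21%), 10 in K562 (1.13%, background 1.56%), 6 in GM12878 (0.676%, background 1.28%) and 1 in HFF1 (0.113%, background 0.282%). MTX3/THBS4, a mitochondrial outer membrane protein and a thrombospondin, had no peak in K562 and folds of 16.1 and 17 in GM12878, 15.6 and 16.7 in HEK293T, and 15.3 and 16.4 in HFF1. Its peaks ranked at the 91.6 percentile or above in every library that had one. SEPTIN10/SOWAHC, where SEPTIN10 is a cytoskeletal GTPase, and SCGB2B2/ZNF302 were the next in K562 by rank.

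In GM12878 the highest-ranked absent pairs were ZNF558/MBD3L1, ZC4H2/ZC3H12B and ZNF214/NLRP14. ZC4H2/ZC3H12B had folds of 14.1 and 13.5 in HEK293T, 11.5 and 11.6 in HFF1, and 13.3 and 12.1 in K562. In HEK293T they were TSR3/GNPTG, which joins an enzyme of ribosomal RNA modification to a lysosomal targeting enzyme, TMEM203/NDOR1 and PPP1R13L/POLR1G. TSR3/GNPTG had folds of 10.7 and 11.4 in GM12878, 10.4 and 8.61 in HFF1, and 7.68 and 9.31 in K562. In HFF1 the only such pair was GLRA3/ADAM29, where GLRA3 is a glycine receptor subunit, with folds of 10.3 and 10.9 in GM12878, 15.3 and 15.7 in HEK293T, and 14 and 13.9 in K562. The shorter HEK293T lists stand beside its larger number of absences, and their part in it was not tested.

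Only 4 of 887 pairs (0.451%) were open in both libraries of 1 line and in no library of another, against 6.86% of all promoters. K562 had 3 of them (0.338%, background 1.42%), HFF1 1 (0.113%, background 3.07%), and GM12878 and HEK293T 0 each (backgrounds 1.86% and 0.517%). CSAG1/MAGEA12, X-linked genes of the cancer-testis class, had folds of 12.4 and 11 in K562. MORC1/C3orf85, where MORC1 is a germ cell protein, had 10.3 and 12.1. WNT3/WNT9B, which encode secreted signalling proteins, had 8.01 and 5 in HFF1. All 4 regions, with H2AC1/H2BC1, were CpG-poor by the class limits, and MORC1/C3orf85 and H2AC1/H2BC1 missed them through a GC content of 49.35% and 49.65%. WNT3/WNT9B rested on weak peaks, with 1 library left when lists held 40000 peaks.

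The 26 pairs with no peak in any library were 17 CpG-poor and 9 CpG-rich. The closest-set of them was PLCZ1/CAPZA3 (19 bp apart), where PLCZ1 is the sperm phospholipase that triggers egg activation. PRSS54/GINS3 (33 bp apart), CSAG2/MAGEA2B and MAGEA2/CSAG3 (37 bp apart each), DCST2/DCST1 (43 bp apart) and ZDHHC19/SLC51A (50 bp apart) were also among them. In 16 of the 26 pairs at least 1 annotated gene start lay more than 500 bp from the start of that gene's canonical transcript. In 10 of the 26 a canonical start did carry a peak, as for GINS3, whose canonical start lies 97391 bp from the annotated gene start and was open in all 8 libraries, and for RAD51D, 1662 bp away and open in 8. For these 10 pairs the absence of a peak does not extend to every canonical start. In the other 16 no canonical start carried a peak in any library.

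Reads that match more than 1 place can be lost in processing. Of the 887 regions, 4 had a copy elsewhere in GRCh38 that covered at least 90% of the region at 99% identity or more. These were SRGAP2B/FAM72D, BOLA2/SLX1B, CSAG2/MAGEA2B and MAGEA2/CSAG3, and all 4 were among the 26 pairs with no peak. How the authors treated such reads is not given in the sources used here, and the part of the copies in the missing peaks was not tested. The related CSAG1/MAGEA12, which had no such copy, was the one of these cancer-testis pairs with a peak in K562.

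Of the 4 pairs nearest to the 1 kb limit, 3 were open in every library. Inside it, MS4A6A/MS4A4A (991 bp) had a peak in 3 libraries and PSMB1/TBP (995 bp) in 8. Outside it, TXNDC12/BTF3L4 (1008 bp) and ENSG00000268790/TMEM38A (1024 bp) had a peak in 8 each. For the 30 pairs within 200 bp inside the limit the median share with a peak was 96.7%, from 86.7% to 100% by library. For the 14 pairs within 200 bp outside it the median was 89.3%, from 85.7% to 100%, so the ranges overlapped.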

How the data were processed

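Bulk ATAC-seq peak lists of 8 human libraries were used, and the 2 mouse libraries were not. The authors deposited 1 narrowPeak list per library, so replicates were not pooled. Each peak has a fold (a linear ratio), a −log10 p and a −log10 q, per the deposited files. Per the labels' protocols, about 20000 DAPI-stained nuclei were sorted after tagmentation, amplification ran for 15 cycles, and a gel selected fragments between 200 and 700 bp. Cutadapt 3.2, Bowtie2 2.4.2, Picard and MACS2 2.2.7.1 are named, per the submitters' processing notes, with the builds hg38 and mm10 and no role for either. All human peaks lay within the chromosome lengths of hg38 (0 past an end). The read shift, duplicate filter and threshold are not given in the sources used here. The lowest −log10 q of the lists was 2 to 2.05.

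Starts came from GENCODE 44 and sequences from GRCh38. A region was open where at least 1 bp overlapped a peak. Members and lists were chosen with earlier results of these data known. Named pairs were the textbook pairs, the highest-ranked pairs specific to or absent from 1 line (up to 3 per line), the 5 with the highest lowest percentile over the libraries, the 6 closest pairs with no peak, up to 4 pairs per functional list, and those next to the 1 kb limit. Tests were exact sign-flip tests over 8 libraries or 4 line means, and an exact permutation test of eta squared over all splits into pairs, adjusted by Benjamini-Hochberg over 7 tests. Overlap and tests were checked on simulated data. Matches to the YY1 and ZBTB33 motifs were counted and are not reported. Copies were sought with minimap2 2.31. Python 3.11.15, numpy 2.4.6 and pandas 2.3.3 were used. Alternatives were other starts, lengths, peak thresholds, overlaps, CpG limits and left-out libraries. Values of some named pairs and markers are not reported here.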

Additional observations from a re-analysis of the deposited data

Results flagged for a closer look

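The gap between bidirectional and other promoters in the share with a peak differed between the cell lines by a test of that difference. It was 35.89 points in GM12878, 37.34 in HEK293T, 31.01 in HFF1 and 36.26 in K562, and the lines accounted for 0.9968 of its variance (exact p = 0.00952, the smallest its permutations allow). The share of other promoters with a peak moved more between the lines, from 54.82% to 63.98%, than that of bidirectional promoters, from 92.16% to 94.98%. With 40000 peaks in each list the gaps were 42.2, 38.1, 40.8 and 40.4 points in the same order of lines, so the ranking of the lines changed.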

How the results depend on the processing

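Of the main results under all settings, 161 values kept their direction, their side of the threshold or their size, 2 lost the threshold, 7 moved and 0 reversed. With HEK293T, HFF1 and K562 only, eta squared was 0.955 for the share with a peak and 0.997 for the gap, each with exact p = 0.0667, the smallest that so few splits allow. The mean share of pairs with 1 peak over both starts, 82.7%, was 80.95% with 40000 peaks a list, 83.87% with canonical starts, and 82.12% to 83.77% when each library was left out in turn. Summits between the starts rose from 56.4% to 80.23% with canonical starts, which also lowered the pairs open in no line from 34 to 18. With 40000 peaks a list, pairs open in exactly 1 line numbered 17 instead of 10. The gap ranged from 33.59 points with canonical starts to 40.97 points with 20000 peaks a list among the planned settings. Of 2 settings chosen after seeing the data, 1 pair per site gave 34.92 points. The replicate numbers did not pair libraries across lines (correlations of replicate differences from −0.0156 to 0.0272 over 8915 regions). With the replicate block the gap was 35.12 points, and eta squared 0.968 and 0.998 (exact p = 0.0417 each, the smallest of 24 splits). It changed no call. For named pairs, 26 counts of libraries moved and 295 did not, and these were added after the data had been seen. With canonical starts only 45 of the 69 named pairs still met the rule and were counted. The cause of these changes was not tested. Read depth is unknown, so a missing peak can be one below detection.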
